A study of Mus musculus with 6 samples.

Results

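The transcripts of 5 aquaporins, *Aqp4*, *Aqp1*, *Aqp7*, *Aqp8* and *Aqp11*, were examined in heart ventricle RNA of wild-type C57BL/6J mice fed a western diet (WD), which is rich in fat and sucrose and holds added cholesterol. All mice had been on WD for 15 weeks before treatment. Of these, 3 were then needle-fed Tributyrin, a triglyceride of butyrate, at 5 g/kg body weight for 3 weeks (WD + Tributyrin), and 3 received the vehicle over the same time (WD + vehicle), which the labels name PBS. The age of these mice is not given in the sources used here, and neither is the sex of each, but *Xist* had at most 6 counts and *Ddx3y* at least 1571 in each library. The members were found by symbol among the 54232 genes of the count files, and they are 5 of 12 aquaporin genes there. *Aqp4* was chosen by its difference between these same groups, seen in earlier work on these libraries, so its difference is given here as a description and without a test. The same applies to the differences of the other members, which were listed with those results known.

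Aquaporins are channel proteins that let water, and in some members glycerol or other small uncharged molecules, cross membranes down an osmotic or concentration gradient. Each channel sits in the membrane as a tetramer whose subunits have a pore of their own. In the heart, *Aqp1* is known from capillary and endocardial endothelium and from red blood cells, *Aqp4* from the cell membrane of muscle, where the dystrophin complex holds it, and *Aqp7* as a glycerol channel of adipocytes, cardiomyocytes and capillaries. *Aqp8* conducts water and other small molecules such as hydrogen peroxide, and *Aqp11* is a distant member of the family that lies in the endoplasmic reticulum.

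The libraries held between 20369746 and 32734485 reads counted on genes. Mitochondrial transcripts took 23.6% to 26.5% of the counts with vehicle and 25.9% to 28.8% with Tributyrin. Of the markers of ventricular cardiomyocytes, 9 of 9 were abundant in every library, with a summed level of 56693 to 58373 CPM (read counts scaled to a common library total) with vehicle and 52502 to 56195 CPM with Tributyrin. Atrial markers summed to 182.0, 178.8 and 55.9 CPM in vehicle replicates 1, 2 and 3, and to 30.4, 64.3 and 43.7 CPM with Tributyrin, so that vehicle replicates 1 and 2 stood apart from the other libraries. Their part in the differences below was examined only by adding the mean atrial marker level as a covariate, which was chosen after seeing the data, and the values are given beside each gene. In RNA from whole tissue, fewer cells of a type and less RNA per cell cannot be told apart.

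*Aqp4* (ENSMUSG00000024411) codes for a protein and spans chromosome 18 from 15389496 to 15410982, read from the minus strand, in the GENCODE M21 annotation of GRCm38 (also called mm10). It has 11 annotated transcripts and 6233 bases of merged exons. An antisense gene, *AC133525.2*, overlaps it on the opposite strand in this annotation, but that gene has no line in the count files. The strand setting of the counting is not given in the sources used here, so reads of these genes cannot be told apart. The files held 208, 199 and 143 reads on *Aqp4* in the vehicle libraries and 350, 342 and 262 with Tributyrin. The relative SD that counting error gives such values was 5.35% to 8.36%.

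Normalised read counts, that is counts divided by the size factor of each library, were 216.2, 154.3 and 177.7 for *Aqp4* in the mice given vehicle, and 327.3, 312.5 and 300.5 in the mice given Tributyrin. Every Tributyrin mouse lay above every vehicle mouse. The highest vehicle mouse and the lowest Tributyrin mouse were still far apart, and the Tributyrin mice were close to each other. The mean was 182.7 ± 31.3 with vehicle and 313.4 ± 13.4 with Tributyrin (SD, n = 3 for each), a difference of 130.7 read counts with a standard error of 19.6. The mean was thus 71.5% higher with Tributyrin.

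**Figure D1:**
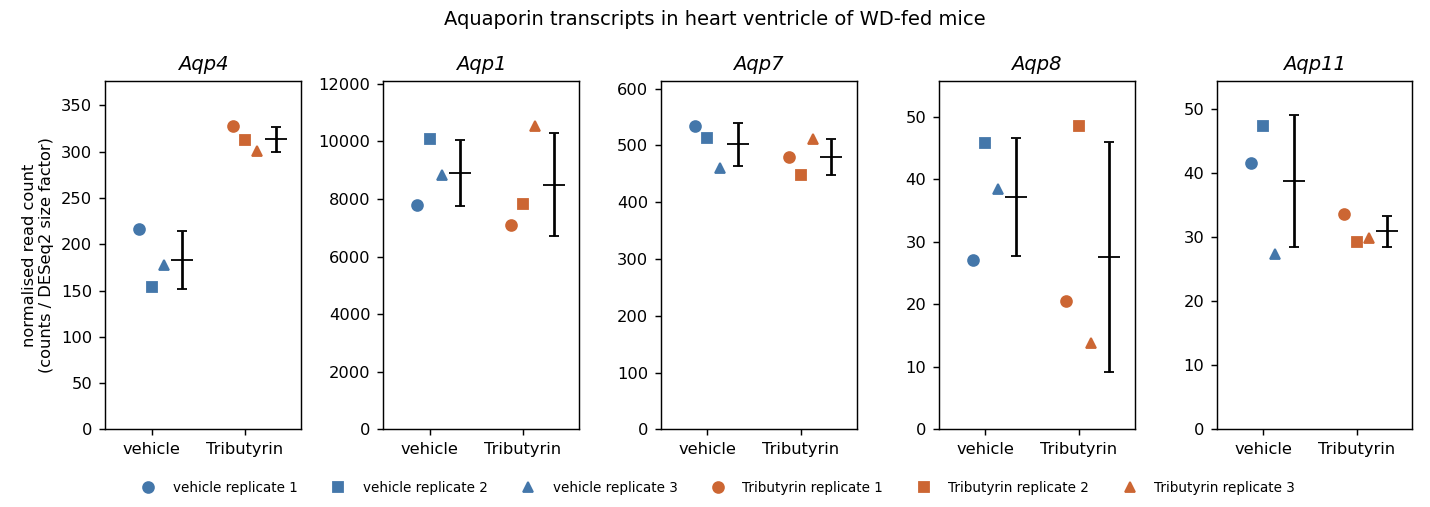
Normalised read counts (counts divided by DESeq2 size factors, y axis from 0, a scale for each gene) of the 5 aquaporins in each mouse given vehicle (blue) or Tributyrin (orange), with the mean and SD of each group of 3 mice as a bar and whiskers. *Aqp4* lay between 154.3 and 216.2 with vehicle and between 300.5 and 327.3 with Tributyrin, while the groups overlapped for the other 4 genes.

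The log2 fold change of *Aqp4* with Tributyrin over vehicle was 0.79 (standard error 0.135) in edgeR's quasi-likelihood model fitted to all genes. With each mouse left out in turn it lay between 0.67 and 0.93. With the atrial marker level as a covariate it was 0.82, and with counts scaled by library size alone it was 0.72. DESeq2 with a prior that shrinks fold changes gave 0.44, the lowest of the alternatives. Vehicle replicate 3, whose summed atrial markers were low, lay with 177.7 between the other vehicle mice. Among these markers *Nppa* was highest in that mouse, at 1046 normalised read counts. What this mouse means for the atrial part was not tested. Set against ventricular cardiomyocyte genes of the same library, *Aqp4* had 1.45, 1.06 and 1.20 reads per 10000 reads on those markers with vehicle. With Tributyrin it had 2.33, 2.12 and 1.97, and the groups were again apart. The summed CPM of those markers was itself lower in every Tributyrin mouse. Of these 9 genes, 7 had a log2 fold change above 0 and 2 below.

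The groups did not overlap for 1 of the 5 members, *Aqp4*, and there the Tributyrin mice were higher. Over all 14133 genes tested, 4.26% were apart in that direction and 8.91% in either direction. By edgeR's quasi-likelihood test, adjusted over all genes by the method of Benjamini and Hochberg, 0 of 5 members passed a false discovery rate (FDR) of 10%, against 0.0% of all genes. An unadjusted p under 0.05 was found for 600 genes, of which 1 was a member, *Aqp4*. With limma-voom 0 genes passed 10%. DESeq2 without a prior called 1 of 5 members at 10%, again *Aqp4*, against 0.0835% of the genes for which it gave an adjusted p. These counts rest on the contrast that chose *Aqp4* and say nothing further about it.

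**Figure D2:**
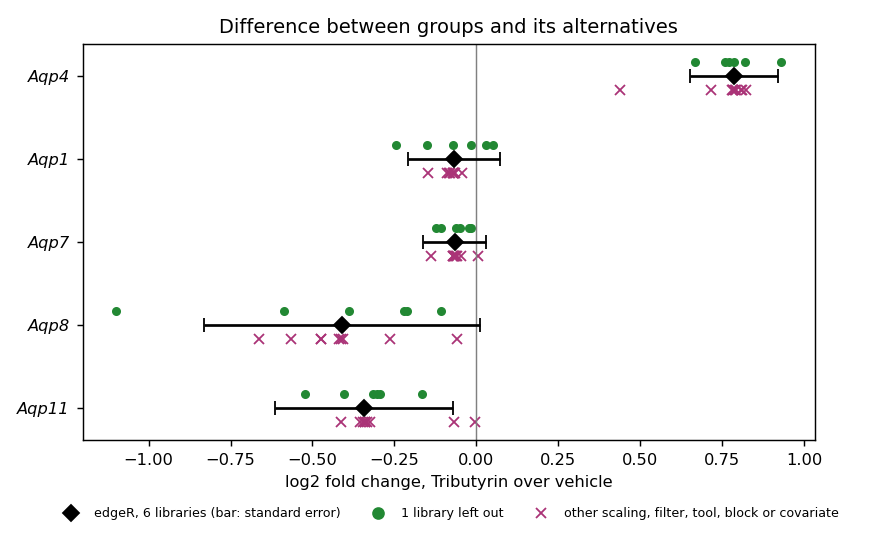
Log2 fold change of each aquaporin with Tributyrin over vehicle (x axis) from edgeR's model on 6 libraries (black diamond, bar for the standard error), with 1 library left out (green circles) and under other scalings, filters, tools, the replicate block or a covariate (purple crosses). All points of *Aqp4* were above 0. Those of *Aqp1* ran from -0.25 to 0.05 and those of *Aqp7* from -0.14 to 0.01. Those of *Aqp8* ran from -1.10 to -0.06 and those of *Aqp11* from -0.52 to -0.005.

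*Aqp4* also marks cells that could be in heart tissue in small numbers, among them astrocytes and fast skeletal muscle fibres, so their markers were read in the same libraries. Fast skeletal muscle markers summed to 2.75 to 3.40 CPM with vehicle and 2.34 to 3.52 CPM with Tributyrin, and 3 of these 8 genes stayed under 10 counts in every library. *Myh4*, the myosin heavy chain of the fastest fibres, had at most 1 count in a library. Of the 3 that could be tested, 2 had a log2 fold change above 0 and 1 below. The highest was *Tnni2*, with 23 to 52 counts in a library, at 0.51 (standard error 0.268), and its groups overlapped. Glial and Schwann cell markers summed to 10.8 to 12.7 CPM with vehicle and 11.3 to 13.8 CPM with Tributyrin, and *Gfap*, the filament protein of astrocytes, had between 1 and 7 counts. Of the 5 that could be tested, 4 were above 0 and 1 below. The highest was *Aldh1l1*, with 45 to 124 counts, at 0.52 (0.256), and its groups overlapped. The ranges of the summed levels of both marker lists overlapped between the groups.

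The genes whose course over the 6 mice was closest to that of *Aqp4* were found by the root mean square difference of mean-centred log2 CPM over the 6 libraries. They were *Gm6712* with a difference of 0.14, *Lysmd1* with 0.15, *Cenpf* with 0.15, *Gm13090* with 0.15 and *Exoc3l4* with 0.15, where the median gene was at 0.44. *Cenpf*, a kinetochore protein of dividing cells, had a mean of 555.0 ± 127.6 normalised read counts (SD, n = 3) with vehicle and 873.5 ± 51.0 with Tributyrin. The other 4 were low, with means of 9.47 to 57.7 with vehicle and 16.5 to 85.3 with Tributyrin. The difference between the groups is part of this measure, so that these genes follow the same contrast as *Aqp4* by construction. The nearest tested genes along chromosome 18 were *Kctd1*, 238 kb away, whose log2 fold change was -0.02 (standard error 0.144), and *Cdh2*, the cardiac N-cadherin, 1178 kb away, with 0.00 (0.090).

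The dystrophin complex links the cytoskeleton to the matrix and holds *Aqp4* at the membrane. A list of 16 genes for this complex and for *Aqp4* anchoring had 15 genes with enough counts to be tested, of which 0 were called in either direction by edgeR at an FDR of 10%, 0 by DESeq2 and 0 by limma-voom. An unadjusted p under 0.05 was found for 0 of them. In that list 5 genes were above 0 and 10 below, with a median log2 fold change of -0.04, where 49.6% of all genes tested were above 0 and their median was -0.00. With library size alone 2 were above 0, where the median of all genes tested was itself -0.07. The lowest log2 fold change was that of *Dmd*, dystrophin itself, at -0.20 (standard error 0.102), with 4928 ± 162 normalised read counts (SD, n = 3) with vehicle and 4285 ± 636 with Tributyrin. *Kcnj10*, a potassium channel found beside *Aqp4* in glia, had between 2 and 6 counts in a library and was not tested.

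*Aqp1* (ENSMUSG00000004655) lies on the plus strand of chromosome 6, from 55336432 to 55348555, with 1 annotated transcript of 2627 bases. It had by far the most reads of the family, between 7121 and 12984 in a library, and counting error gives a relative SD of at most 1.19%. Its normalised read counts were 7773, 10068 and 8847 with vehicle and 7112, 7840 and 10513 with Tributyrin. The groups overlapped, with the lowest and the highest mouse both among those given Tributyrin. The mean was 8896 ± 1148 with vehicle and 8488 ± 1791 with Tributyrin (SD, n = 3 for each), and the log2 fold change was -0.07 (standard error 0.139). Its sign was not fixed, since it was 0.05 without Tributyrin replicate 1, 0.03 without vehicle replicate 2 and -0.25 without Tributyrin replicate 3. With the atrial marker level as a covariate it was -0.09.

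The spread of *Aqp1* between mice of a group was wider than counting error, and endothelial markers were read beside it. These 8 markers, among them *Pecam1*, *Cdh5* and the VEGF receptor *Kdr*, summed to 703.6, 752.9 and 727.4 CPM with vehicle and 660.9, 743.3 and 674.8 CPM with Tributyrin. Per 100 reads on these markers, *Aqp1* had 42.0, 52.7 and 48.1 reads with vehicle and 40.2, 40.2 and 55.8 with Tributyrin. This ratio was highest in Tributyrin replicate 3 and next highest in vehicle replicate 2. Of the endothelial markers tested, 0 of 8 were called at an FDR of 10% by edgeR, 0 by DESeq2 and 0 by limma-voom, and 0 had an unadjusted p under 0.05. Erythroid markers, which come with blood left in the tissue, summed to 545.0, 508.4 and 722.5 CPM with vehicle and 923.1, 382.7 and 474.1 CPM with Tributyrin. The mouse with the highest erythroid sum, Tributyrin replicate 1, had the lowest *Aqp1*. Whether blood or endothelial content plays a part in the spread of *Aqp1* was not tested. Mesothelial markers, of the outer lining of the heart, summed to 23.5, 11.7 and 27.8 CPM with vehicle and 15.5, 22.5 and 15.7 CPM with Tributyrin.

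**Figure D3:**
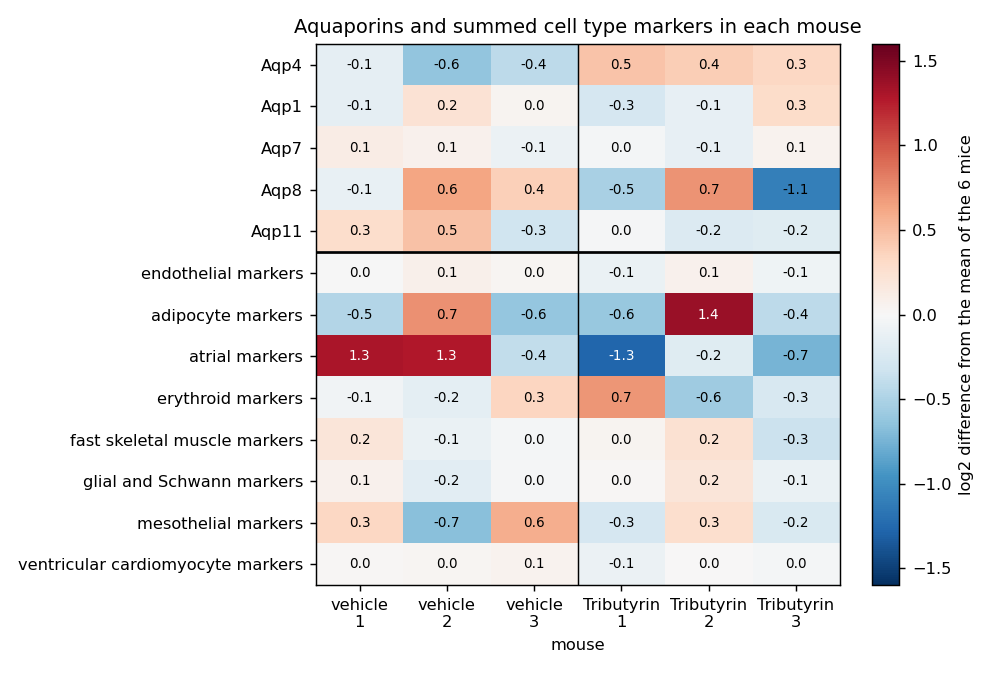
Log2 difference of each mouse from the mean of the 6 mice (colour and printed value) for the normalised read counts of the 5 aquaporins (above the line) and for the summed CPM of 8 lists of cell type markers (below the line), with the mice in columns. *Aqp8* and the adipocyte markers were both above their means in vehicle replicate 2 and Tributyrin replicate 2, and atrial markers were high in vehicle replicates 1 and 2.

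*Aqp7* (ENSMUSG00000028427), the glycerol channel, is read from the minus strand of chromosome 4, between 41033074 and 41048139, with 4 annotated transcripts and 2828 bases of merged exons. Between 370 and 661 reads fell on it in a library. Its normalised read counts were 533.2, 512.5 and 459.7 with vehicle and 479.7, 448.6 and 511.6 with Tributyrin. The groups overlapped, and *Aqp7* varied least of the 5 members, with the highest mouse 1.19-fold above the lowest. The mean was 501.8 ± 37.9 with vehicle and 480.0 ± 31.5 with Tributyrin (SD, n = 3 for each), and the log2 fold change was -0.07 (standard error 0.096), or 0.01 with the atrial marker level as a covariate. The scaling decided whether the groups overlapped. In TPM, which are counts per exonic length set relative to all transcripts with the mitochondrial ones included, *Aqp7* was at 15.2 to 16.9 with vehicle and 14.1 to 14.2 with Tributyrin, which do not overlap, but over nuclear genes alone it was at 28.5 to 32.01 and 28.03 to 28.8 TPM, which do.

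Glycerol released from triglycerides leaves or enters cells through *Aqp7* and is taken into metabolism by glycerol kinase (*Gk*). A list of 14 genes of glycerol metabolism and lipolysis had 13 genes that could be tested. At an FDR of 10% edgeR called 0 of these, and DESeq2 and limma-voom also called 0. By edgeR 4 of them had an unadjusted p under 0.05, against 600 of all 14133 genes tested. With no filter on low counts edgeR called 1, *G0s2*, against 167 of the 25581 genes with a count. The median log2 fold change was 0.08, and 10 genes were above 0 and 3 below. With library size alone 7 were above 0, where the median of all genes tested was itself -0.07. The highest value was that of *G0s2*, an inhibitor of the triglyceride lipase ATGL, at 0.41 (standard error 0.179), with 722.6 ± 125.1 normalised read counts (SD, n = 3) with vehicle and 958.6 ± 236.9 with Tributyrin, and the groups overlapped. The lowest was that of *Gpd2*, the mitochondrial glycerol-3-phosphate dehydrogenase, at -0.12 (0.116). *Gk* had 1007 ± 91.7 normalised read counts with vehicle and 963.4 ± 65.5 with Tributyrin. *Mgll*, the lipase that frees the last fatty acid from glycerol, was at 0.24 (0.086), with 4475 ± 481 and 5269 ± 282. The groups did not overlap for 4 of the 13 genes, with *Mgll*, *Lipe* and *Lpl* higher and *Gpd1l* lower with Tributyrin, where 8.91% of all genes were apart in either direction.

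*Aqp8* (ENSMUSG00000030762) lies on the plus strand of chromosome 7, from 123462291 to 123468004, with 1581 bases of merged exons. It had between 12 and 59 reads in a library, and the relative SD from counting error reached 13.0% to 28.9%. Its normalised read counts were 27.02, 45.7 and 38.5 with vehicle and 20.6, 48.4 and 13.8 with Tributyrin. The groups overlapped and both the highest and the lowest mouse had been given Tributyrin, the one 3.52-fold above the other. The mean was 37.1 ± 9.44 with vehicle and 27.6 ± 18.4 with Tributyrin (SD, n = 3 for each), and the log2 fold change was -0.41 (standard error 0.421). A single mouse moved it most, since without Tributyrin replicate 2 it was -1.10, and without Tributyrin replicate 3 it was -0.11.

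Adipocyte markers were low but uneven between the mice. They summed to 2.33, 5.38 and 2.11 CPM with vehicle and 2.13, 8.39 and 2.42 CPM with Tributyrin. *Adipoq*, the adipocyte hormone adiponectin, had 1, 15 and 3 counts with vehicle and 3, 16 and 0 counts with Tributyrin. Vehicle replicate 2 and Tributyrin replicate 2 thus had the most adipocyte transcripts, and these mice also had the most *Aqp8*. Vehicle replicate 3 had few adipocyte transcripts and the next highest *Aqp8*. With the adipocyte marker level as a covariate, chosen after seeing the data, the log2 fold change of *Aqp8* was -0.66, against -0.26 with the atrial marker level. *Aqp7*, which adipocytes also express, had 512.5 and 448.6 normalised read counts in the mice with the most adipocyte transcripts, within the range of the others for the first and below it for the second.

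*Aqp11* (ENSMUSG00000042797) is read from the minus strand of the same chromosome, between 97724006 and 97738289, with 9418 bases of merged exons in 5 annotated transcripts. Between 22 and 61 reads fell on it in a library. Its normalised read counts were 41.6, 47.3 and 27.3 with vehicle and 33.7, 29.2 and 29.8 with Tributyrin. The groups overlapped, as vehicle replicate 3 was the lowest mouse of all. The mean was 38.7 ± 10.3 with vehicle and 30.9 ± 2.40 with Tributyrin (SD, n = 3 for each), and the log2 fold change was -0.34 (standard error 0.271). The vehicle mice with the higher values, replicates 1 and 2, were also those with many atrial transcripts, and with the atrial marker level as a covariate the log2 fold change was -0.00. The nearest tested neighbour, *Clns1a*, 3.21 kb away, was at 0.02 (0.088).

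The other 7 aquaporins of the mouse were at or near 0. *Mip*, the water channel of the eye lens, and *Aqp12* had 0 counts in all 6 libraries, and *Aqp5* and *Aqp9* had 1 count over all libraries. *Aqp3* had 5 counts in all and *Aqp6* had 7. *Aqp2*, the vasopressin-regulated channel of the kidney collecting duct, had the most of these, with 5, 1 and 2 counts with vehicle and 5, 3 and 7 with Tributyrin. None of the 7 had enough counts to be tested. The members are therefore the 5 aquaporins that passed the filter on low counts, and the least counted among them, *Aqp8*, had 203 reads over the 6 libraries, against 23 for *Aqp2*. All 5 members passed with at least 12 reads in every library, so that none entered by way of a single group.

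Levels can be compared between genes only per length, so counts were turned into TPM with the length of the merged exons. *Aqp1* was at 288.8 ± 47.3 TPM (SD, n = 6) and ranked 263 among 54079 annotated genes. *Aqp7* was at 15.1 ± 1.20 TPM, *Aqp4* at 3.43 ± 0.916 TPM, *Aqp8* at 1.83 ± 0.867 TPM and *Aqp11* at 0.324 ± 0.084 TPM (SD, n = 6 for each). *Aqp1* exceeded *Aqp7* by 15.7-fold to 22.1-fold within a mouse, and *Aqp7* exceeded *Aqp4* by 3.16-fold to 7.32-fold. The ranges of *Aqp4* and *Aqp8* overlapped. *Aqp4* was the higher of these in 5 of 6 mice, and in vehicle replicate 2 it was at 2.30 TPM against 2.69 TPM for *Aqp8*. *Aqp8* was above *Aqp11* in 6 of 6 mice. The order of the means was the same when mitochondrial transcripts were left out and when the longest transcript was taken as the length.

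**Figure D4:**
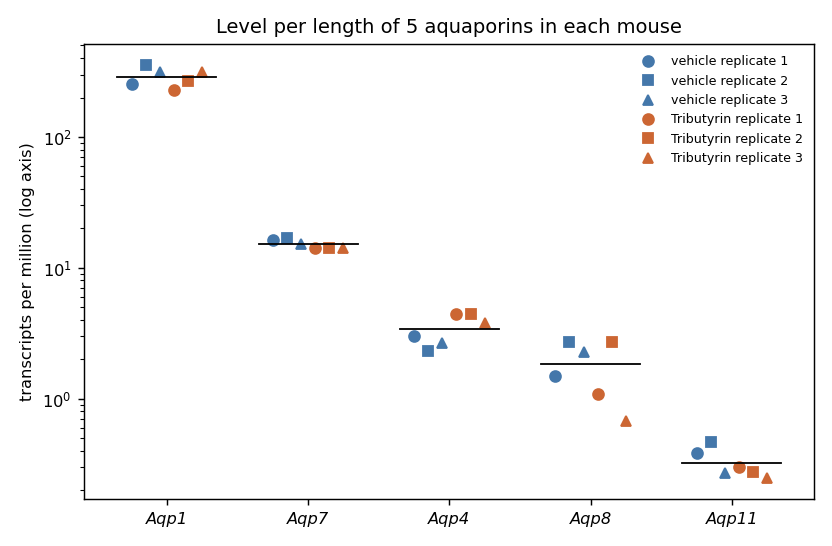
Level of the 5 aquaporins in TPM (log axis) in each mouse given vehicle (blue) or Tributyrin (orange), with the mean of the 6 mice as a line. *Aqp1* was near 289 TPM and *Aqp11* near 0.324 TPM, and of the neighbours in this order the ranges overlapped only for *Aqp4* and *Aqp8*.

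As a share of the TPM of all 12 aquaporins, which needs no scaling between libraries, *Aqp1* made up 92.2% to 94.1% with vehicle and 91.8% to 94.2% with Tributyrin. *Aqp7* made up 4.45% to 5.88% with vehicle and 4.26% to 5.75% with Tributyrin. The share of *Aqp4* was 1.08%, 0.608% and 0.794% with vehicle and 1.78%, 1.55% and 1.135% with Tributyrin. The shares of *Aqp4* were apart between the groups, but the highest vehicle mouse and the lowest Tributyrin mouse were close on this scale, with *Aqp1* at 255.7 TPM in the first and 311.7 TPM in the second. The summed level of the family was 277.4, 379.2 and 335.7 TPM with vehicle and 247.7, 288.3 and 330.9 TPM with Tributyrin, and the groups overlapped.

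The members differed in how much they varied between mice of a group beyond counting error. The biological coefficient of variation that edgeR estimated was 8.75% for *Aqp7* and 11.1% for *Aqp4*. The trend over all genes at their abundance was at 10.5% and 11.7%. edgeR draws the estimate of each gene toward this trend, so that closeness to it is partly built in. It was 12.8% for *Aqp1* against 9.12% on the trend and 32.5% for *Aqp8* against 21.2%. For *Aqp11* it was 17.8% against 21.01%.

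Water channels act with the transporters that set cell volume, so a list of 19 genes of the osmotic response and of volume regulation was read beside them. Of the 18 that could be tested, edgeR called 0 at an FDR of 10%, DESeq2 0 and limma-voom 0. By edgeR 2 of them had an unadjusted p under 0.05, against 600 of all 14133 genes tested. The median log2 fold change was -0.07, with 5 genes above 0 and 13 below. With library size alone 1 was above 0, where the median of all genes tested was itself -0.07. The lowest was *Slc5a3*, the sodium/myo-inositol transporter, at -0.51 (standard error 0.224), with 91.2 ± 13.4 normalised read counts (SD, n = 3) with vehicle and 64.4 ± 16.1 with Tributyrin, and it was the 1 gene of the 18 whose groups did not overlap. The highest was *Trpv4*, an osmosensitive cation channel that has been linked to *Aqp4* in glia, at 0.28 (0.328), with 106.1 ± 33.0 and 130.5 ± 56.0 and groups that overlapped. *Nfat5*, the transcription factor of the osmotic response, had 1334 ± 200 and 1226 ± 225.

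**Figure D5:**
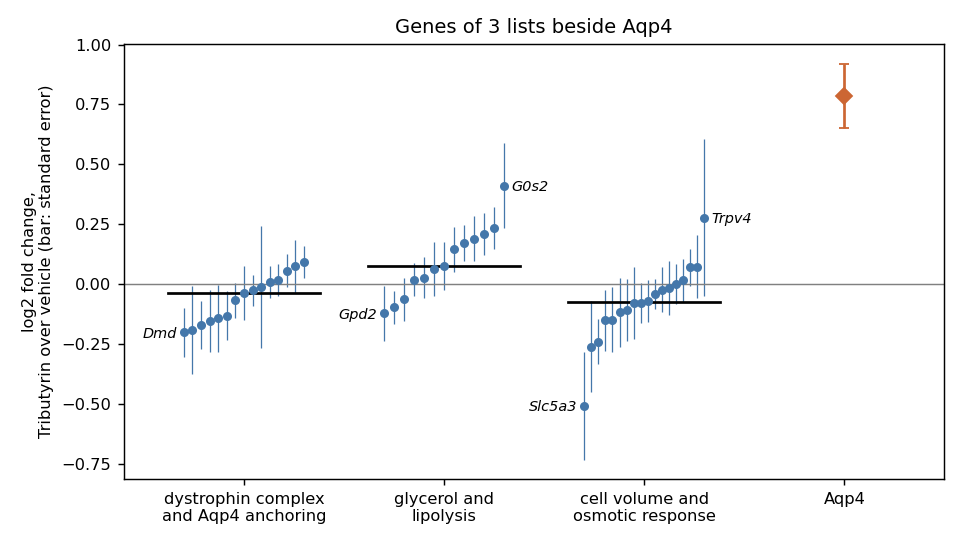
Log2 fold change with Tributyrin over vehicle (y axis) of each tested gene of 3 lists (blue points, bars for the standard error, line for the median of the list), with *Aqp4* at the right in orange. The medians of the lists were -0.04, 0.08 and -0.07, the highest gene named, *G0s2*, was at 0.41, and *Aqp4* was at 0.79.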

How the data were processed

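Heart ventricle mRNA of 6 WD-fed mice, 3 given Tributyrin and 3 given vehicle, had been sequenced from stranded libraries as single-end reads. The deposited values are raw counts per Ensembl gene. To make them the authors trimmed adapters (cutadapt 1.13 in the submitters' processing notes), dropped low-quality and rRNA reads, aligned to mm10 with STAR and counted with htseq-count (HTSeq 0.6.1p1). Not given in the sources used here are the STAR version, the annotation release and how strand was set. Reads shared by genes are handled by that counting, and short reads do not separate transcripts of a gene.

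Groups came from the sample labels. No pair of libraries was alike within sampling noise (chi-square per degree of freedom of at least 7.40 over genes whose counts summed to 20 or more). Of 54232 identifiers, 54079 matched GENCODE M21. Counts were compared with edgeR 4.0.16 (R 4.3.3), by its quasi-likelihood test with TMM scaling, filterByExpr (minimum count 10, with a total of 15 or more) and p-values adjusted by Benjamini-Hochberg over 14133 genes. Calls were made at an FDR of 10%, the threshold of the study's results. Normalised counts use the size factors of DESeq2 1.42.0. DESeq2, limma 3.58.1 with voom, other scalings and filters, a replicate block and fits without each mouse in turn were alternatives, and the covariates were added after seeing the data. The edgeR step was tested on simulated data. Figures were drawn with matplotlib 3.10.9.

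The members, the gene lists and the rule for naming genes (the members, other aquaporins, the highest and lowest gene of each list, the 5 genes closest to *Aqp4* and the nearest tested genes) were chosen with earlier results of these data known. *Gk*, *Mgll*, *Lipe*, *Lpl*, *Gpd1l*, *Nfat5*, *Kcnj10* and single marker genes were named outside it, after their values were seen. Labels number 3 samples in each group without naming cages or litters, so the spread is that between these samples. Depth limits *Aqp8* and *Aqp11* most. Protein sequences were not used here, and some genes of the lists are not reported by name.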

Additional observations from a re-analysis of the deposited data

How the results depend on the processing

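The log2 fold change of *Aqp4* was above 0 in all 14 alternatives without a covariate, from 0.44 by DESeq2 with a prior to 0.93 without vehicle replicate 1. It changed by more than the spread between mice with that prior alone, which shrinks fold changes by its construction. For *Aqp8* the value ran from -1.10 to -0.11 with each mouse left out, and for *Aqp11* it was -0.00479 with the atrial marker level as a covariate. The cause was not tested for these. *Aqp8* and *Aqp11* were below 0 in all 13 of theirs and *Aqp7* in 14 of 14, while *Aqp1* was above 0 in 2 of 14. At an FDR of 10%, 1 member passed by DESeq2 without a prior, 1 with a prior and 1 by edgeR with no filter on low counts, each time *Aqp4*, against 0 in the main comparison. Over all genes these settings called 11 (0.0835%), 9 and 167 (of 25581 genes with a count), against 0. With each mouse left out, between 0 and 3 genes were called. The calls of *Aqp4* rest on the contrast that chose it and say nothing further about it. In TPM over nuclear genes alone *Aqp4* was at 6.76, *Aqp1* at 562.2, *Aqp7* at 29.5, *Aqp8* at 3.52 and *Aqp11* at 0.630, since mitochondrial transcripts leave the total. With the longest transcript as the length *Aqp7* was at 14.5 and *Aqp11* at 0.449.

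With the replicate number as a block, 2 genes passed 10%, none of them a member, and *Aqp4* was at 0.79. The deviations of same-numbered libraries from their group means correlated at 0.214, 0.0375 and 0.0147. Libraries of unlike number were not compared in this way, so these values cannot show whether the samples were paired by number. The filter of a mean CPM of at least 5 left out *Aqp8* and *Aqp11*, which have no value there. Counts of 12 to 61 reads in a library limit what can be said of *Aqp8* and *Aqp11*.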
